A study of Homo sapiens with 21 samples.

Results

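The Notch genes followed here are the receptors NOTCH1, NOTCH2 and NOTCH3, the ligands JAG1, JAG2, DLL1 and DLL3, the target genes HES1 and HEY1, and the coactivator MAML2. They were taken by symbol from the deposited RNA-Seq table and make up 10 of its 60728 gene identifiers, and all 10 passed the filter on low values that left 18584 genes for testing. SK-N-BE(2) is an established MYCN-amplified human neuroblastoma cell line. Its cells were transduced with lentivirus made in HEK293T cells, and polyadenylated RNA was sequenced 72 h later in 21 libraries, 3 for each of 7 conditions. The conditions are a non-silencing control, here Control, and 6 silencing conditions that carry short hairpin RNAs (shRNAs). By label, shARID1A.2 and shARID1A.4 are single shRNAs against ARID1A, shARID1B.2 and shARID1B.3 are single shRNAs against ARID1B, and shARID1A/B.2.3 and shARID1A/B.4.2 are combinations against both genes. The libraries held 27954334 to 41077638 reads, and the deposited value is the read number of a gene divided by 1 size factor per library. Nothing in the labels says that replicates came from separate cultures, so the p-values measure the spread between these libraries, which may be technical.

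ARID1A and ARID1B, the DNA-binding subunits that define the BAF form of the SWI/SNF chromatin remodeller, did not follow the labels. ARID1A had values of 6097, 6374 and 6463 in the 3 Control libraries. It stood at 2109 to 2169 in shARID1A.2, 2157 to 2289 in shARID1A.4, 1882 to 1962 in shARID1B.2 and 2449.7 to 2507 in shARID1B.3, all below Control. In the libraries labelled as combinations it remained at 5510.3 to 5752 (shARID1A/B.2.3) and 5352 to 5589 (shARID1A/B.4.2), log2 fold changes of -0.16 and -0.21. ARID1B had values of 5793, 5804 and 5791 in Control. It stood at 2224 to 2252 in shARID1A.2, 3065 to 3126 in shARID1A.4, 2540.5 to 2651 in shARID1A/B.2.3 and 1881 to 1955 in shARID1A/B.4.2, against 4913 to 5056 in shARID1B.2 and 6038 to 6182 in shARID1B.3, where its log2 fold changes were -0.21 and 0.072. Thus both genes were low in the libraries labelled shARID1A, ARID1A alone was low in those labelled shARID1B, and ARID1B alone was low in those labelled shARID1A/B. The labels are used below as written, and every direction by label is to be read with this in mind.

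**Figure D1:**
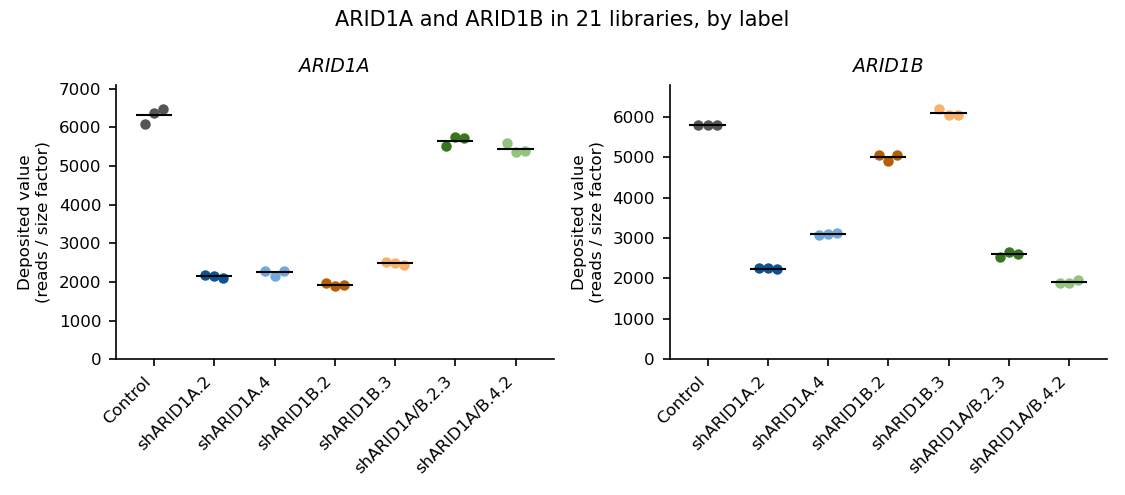
Deposited value (reads divided by the size factor of the library, linear axis from 0) of ARID1A and ARID1B in each of 21 libraries, by label. Points are libraries and lines are the means of 3. ARID1A is low under the shARID1A and shARID1B labels, and ARID1B is low under the shARID1A and shARID1A/B labels.

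Notch receptors are membrane proteins that are bound by Jagged or Delta-like ligands on a neighbouring cell. Binding lets ADAM proteases and then γ-secretase cut the receptor, and the freed intracellular domain joins the DNA-binding protein RBPJ and a Mastermind-like coactivator such as MAML2 in the nucleus. This complex switches on HES and HEY genes, whose products are bHLH repressors of proneural genes. In neuroblastoma, Notch receptors and MAML2 are known for their link to the mesenchymal cell state, and the adrenergic state is the more neuronal one.

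Promoter sequence from RefSeq (GRCh38.p14) was at hand for 7 of the 10 genes, and the 250 bases before each RefSeq start were searched on both strands. HES1 is shown because it is the textbook target of the RBPJ complex, and NOTCH2 and NOTCH3 because their values moved together over the libraries. The sequences run 5′ to 3′ on the gene strand, and capitals mark TGGGAA, the core of the RBPJ motif. They lie at chr3:194135898-194136147 on the plus strand (HES1), chr1:120069663-120069912 on the minus strand (NOTCH2) and chr19:15200996-15201245 on the minus strand (NOTCH3).
HES1: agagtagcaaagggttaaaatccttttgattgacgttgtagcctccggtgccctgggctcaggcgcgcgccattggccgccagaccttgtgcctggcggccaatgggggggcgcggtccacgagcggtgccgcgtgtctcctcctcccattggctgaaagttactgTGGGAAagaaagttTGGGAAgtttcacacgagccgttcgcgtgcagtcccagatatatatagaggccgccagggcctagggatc
NOTCH2: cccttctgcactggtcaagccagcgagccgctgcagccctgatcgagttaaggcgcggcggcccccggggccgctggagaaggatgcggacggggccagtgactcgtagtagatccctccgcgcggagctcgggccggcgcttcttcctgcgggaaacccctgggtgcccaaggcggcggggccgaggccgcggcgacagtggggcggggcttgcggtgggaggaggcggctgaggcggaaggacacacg
NOTCH3: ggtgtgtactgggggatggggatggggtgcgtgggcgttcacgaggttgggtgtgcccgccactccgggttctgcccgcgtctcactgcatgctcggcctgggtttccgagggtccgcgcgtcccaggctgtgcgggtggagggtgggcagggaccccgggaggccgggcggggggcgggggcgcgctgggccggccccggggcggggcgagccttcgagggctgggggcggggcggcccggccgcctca
HES1 held TGGGAA on its own strand at bases 84 to 79 and again at bases 70 to 65 before the start, and it was the 1 member of 7 with a match. Of 35116 promoters in the table, 20.8% held at least 1 match in a window of this length. CACNAG, the N-box bound by HES proteins, was found in 3 of 7 members (HES1, NOTCH3 and MAML2) and in 32.0% of all promoters. The E-box CACGTG and the AP-1 motif TGANTCA were found in 0 of 7 members, against 6.3% and 6.6% of all promoters. A match describes letters in this window and is not evidence of binding, and no match says only that these letters are not there.

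Per kilobase of exon, the Control libraries ranked the members from HEY1 at 849.6 ± 8.82 (value per kb, SD, n = 3) to DLL1 at 4.28 ± 1.66. MAML2 (383 ± 5.14), NOTCH3 (360.3 ± 15.2), NOTCH2 (268 ± 1.58) and HES1 (207 ± 19.0) followed HEY1. The ligands lay far below at 52.0 for DLL3, 13.8 for JAG2 and 8.45 for JAG1, and NOTCH1 was among them at 11.2. These cells held NOTCH2 and NOTCH3 as their abundant receptor transcripts, with NOTCH1 and the member ligands at lower levels. DLL1 rested on 10 to 17 reads per Control library and NOTCH1 on 101 to 111, so both are measured less precisely than NOTCH2 with 3856 to 4358 reads.

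Against Control, the member receptors, HEY1 and MAML2 were mostly lower. Of the ligands, DLL1 and DLL3 were mostly higher, while JAG1 and JAG2 were each called in both directions. The count of members called has to be read against a background in which most genes were called. At an adjusted p under 0.05 (limma with a trend on log2 of value + 1, Benjamini-Hochberg over 18584 genes), 8 of 10 members differed in shARID1A.2 against 76.1% of all genes. The counts were 8 in shARID1A.4 (all genes 73.6%), 7 in shARID1B.2 (65.6%), 7 in shARID1B.3 (63.9%), 10 in shARID1A/B.2.3 (69.2%) and 9 in shARID1A/B.4.2 (71.2%). Lower and higher calls were 6 and 2 in shARID1A.2 (38.2% and 37.9% of all genes), 6 and 2 in shARID1A.4 (36.6% and 37.0%), 5 and 2 in shARID1B.2 (34.0% and 31.6%), 5 and 2 in shARID1B.3 (32.0% and 31.9%), 5 and 5 in shARID1A/B.2.3 (34.0% and 35.2%), and 6 and 3 in shARID1A/B.4.2 (36.1% and 35.1%). In either direction the counts were close to the background share under the shARID1A and shARID1B labels and above it in both conditions labelled shARID1A/B, and 10 genes are too few to read more from the counts. Their median log2 fold change was -0.84, -0.39, -0.36, -0.16, 0.12 and -0.34 in the same order of conditions, beside medians of 0.010 to 0.018 over all genes tested. Scaling to total reads instead moved the median of all genes to 0.19 in shARID1A.2, 0.15 in shARID1B.2 and 0.20 in shARID1A/B.4.2, and no member that was called changed direction under it. In bulk RNA, fewer cells with a transcript and less transcript per cell cannot be told apart.

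With a log2 fold change beyond 1 in either direction and the same adjusted p, 5 members were lower in shARID1A.2 (NOTCH1, NOTCH2, NOTCH3, HES1 and MAML2; background 10.7% of genes lower) and 1 was higher (DLL1; 14.1% higher). MAML2 lay on the edge there, at -1.0002. In shARID1A/B.4.2, 4 were lower (the 3 receptors and MAML2; 8.14%) and 1 was higher (DLL1; 10.3%). In shARID1A.4, MAML2 was the 1 lower member (12.0%) and JAG2 and DLL3 were the 2 higher ones (9.32%). In shARID1A/B.2.3, MAML2 was again the 1 lower member (9.10%) and JAG2 and DLL3 again the 2 higher ones (7.04%). In shARID1B.2, 0 were lower (5.12%) and DLL1 was the 1 higher (6.86%). In shARID1B.3, where by label ARID1B and by transcript ARID1A was silenced, 0 were lower (6.58%) and 0 higher (5.20%), the nearest being HES1 at 0.99.

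**Figure D2:**
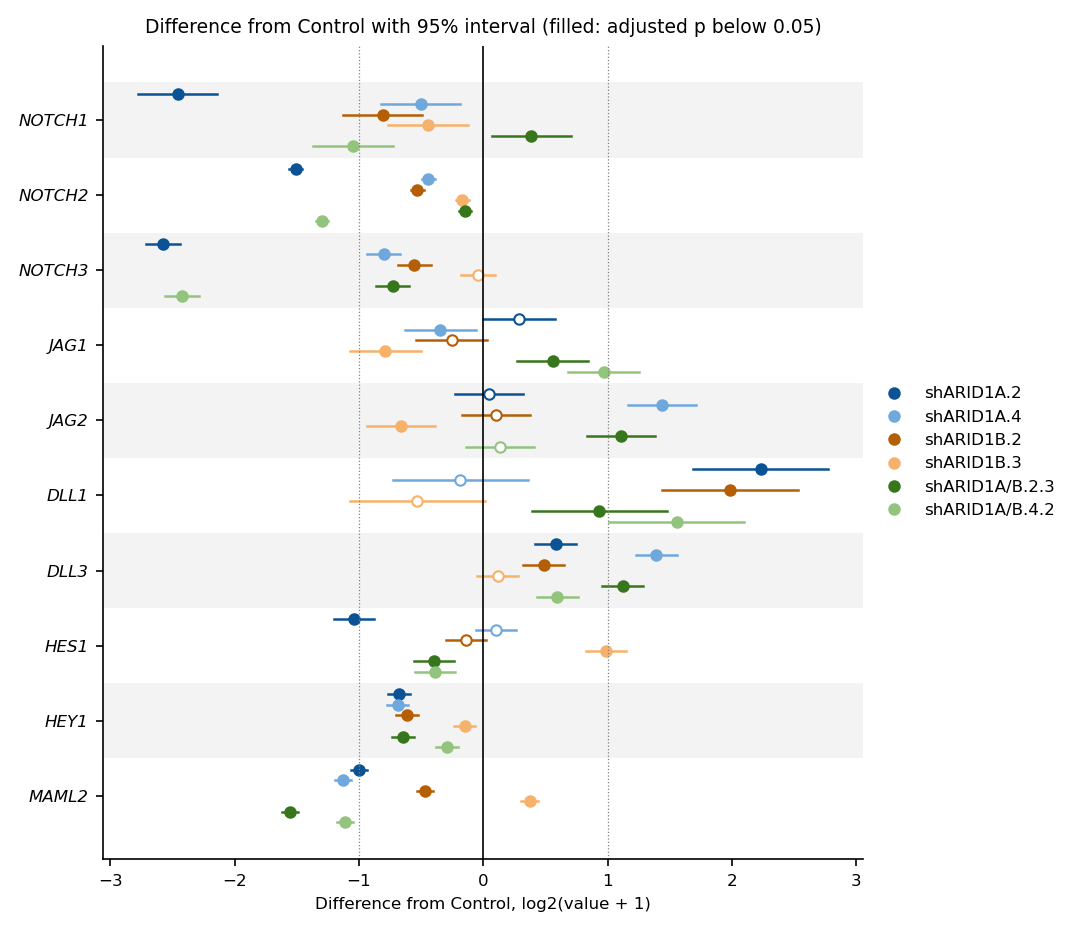
Difference from Control in log2(value + 1) for the 10 Notch genes in 6 conditions. Points are estimates from 3 libraries against 3, bars are 95% intervals, filled points passed an adjusted p of 0.05 and dotted lines mark a log2 difference of 1 in either direction. NOTCH2 and HEY1 lie left of 0 in all 6 conditions, and DLL3 lies right of 0 in all 6, with its shARID1B.3 point open.

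NOTCH2 (chr1:119911553-120069626, minus strand, GENCODE 29 on GRCh38) was lower in all 6 conditions. Its values were 4529, 4502 and 4476 in Control, 1532, 1599.6 and 1614 in shARID1A.2 and 1821, 1859 and 1814 in shARID1A/B.4.2. In both of these conditions the libraries lay far below those of Control, with log2 fold changes of -1.51 (SE 0.025, adjusted p = 6.79e-25) and -1.30 (SE 0.025, adjusted p = 1.81e-23). The fall was 2.85-fold in shARID1A.2 on the scale of value + 1. In the other 4 conditions it was smaller but without overlap with Control. The values were 3389, 3256 and 3295 in shARID1A.4, 3139, 3094 and 3116 in shARID1B.2, 4009.9, 3968 and 4046 in shARID1B.3 and 4006, 4166 and 4025 in shARID1A/B.2.3, with log2 fold changes of -0.44, -0.53, -0.17 and -0.15. shARID1B.3 and shARID1A/B.2.3, which come next below Control, overlapped with each other. NOTCH2 shares sequence with the NOTCH2NL genes, and reads may be split among them. The condition means of NOTCH2NLA, NOTCH2NLB and NOTCH2NLC were 79.0, 11.3 and 171 in Control. The part of shared reads in the NOTCH2 values was not tested.

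NOTCH3 (chr19:15159038-15200981, minus strand) fell in 5 of 6 conditions. Its values were 3219, 3478 and 3456 in Control, against 590.0, 511 and 602 in shARID1A.2 and 558, 668 and 672 in shARID1A/B.4.2. Both low conditions were far from Control and overlapped with each other, at log2 fold changes of -2.58 (SE 0.065, 5.96-fold lower, adjusted p = 3.01e-21) and -2.42 (SE 0.065, 5.36-fold lower, adjusted p = 1.59e-20). The libraries of shARID1A.4 (1908 to 1971), shARID1A/B.2.3 (2034 to 2048) and shARID1B.2 (2120.0 to 2415) lay between, each below Control without overlap, at -0.80, -0.73 and -0.55. In shARID1B.3 the values of 3388, 3450.0 and 3041 overlapped with Control. The difference there was -0.041 (95% interval -0.18 to 0.094, adjusted p = 0.605), and it was 0.015 without shARID1B.3 replicate 3. Over the 21 libraries the log2 values of NOTCH2 and NOTCH3 had a Pearson r of 0.96, given as a description of libraries that share conditions and depth.

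NOTCH1 (chr9:136494433-136545786, minus strand) had the lowest Control level of the 3 member receptors and was the 1 of them called higher in any condition. Its values were 119, 116 and 114 in Control and 23.3, 21.6 and 16.7 in shARID1A.2, all 3 below every other library, a log2 fold change of -2.46 (SE 0.15, 5.50-fold lower, adjusted p = 3.07e-13). The values were 54.7, 61.8 and 51.5 in shARID1A/B.4.2 (-1.05), 63.9, 64.8 and 69.4 in shARID1B.2 (-0.81) and 79.6, 88.0 and 77.8 in shARID1A.4 (-0.50), all below Control and called lower. In shARID1A/B.2.3 the values were 136, 157 and 165, all above Control, at 0.39 (SE 0.15, adjusted p = 0.0303). For this rise the adjusted p went above 0.05 without Control replicate 1 (log2 fold change 0.40), 2 (0.39) or 3 (0.37), and without shARID1A/B.2.3 replicate 2 (0.36) or 3 (0.33). The values in shARID1B.3 were 112, 71.3 and 76.9, of which replicate 1 lay near Control, at -0.45 (adjusted p = 0.0146). That call was lost without shARID1B.3 replicate 2 (-0.32, adjusted p = 0.101) or replicate 3 (-0.37, adjusted p = 0.0677).

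DLL1 (chr6:170282206-170306565, minus strand), a Delta-like ligand that activates receptors on neighbouring cells, rose from very low levels in 4 of 6 conditions. Its values were 20.0, 11.2 and 10.3 in Control, 66.5, 62.8 and 67.9 in shARID1A.2 and 43.8, 57.9 and 66.7 in shARID1B.2. In both conditions every library lay above Control, at log2 fold changes of 2.23 (SE 0.26, 4.69-fold, adjusted p = 3.95e-08) and 1.98 (SE 0.26, 3.96-fold, adjusted p = 3.87e-07). The values were 39.2, 43.3 and 40.3 in shARID1A/B.4.2 (1.56) and 20.3, 30.2 and 29.2 in shARID1A/B.2.3 (0.93), again above Control. In shARID1A.4 (14.6, 9.51 and 11.0) and shARID1B.3 (6.97, 7.6 and 12.95) the libraries overlapped with Control, with differences of -0.19 (95% interval -0.73 to 0.36) and -0.53 (-1.07 to 0.013, adjusted p = 0.0824). The difference in shARID1A.4 was 0.095 without Control replicate 1, the library with the highest Control value. The difference in shARID1B.3 passed the threshold without Control replicate 3 (-0.70, adjusted p = 0.0396) or shARID1B.3 replicate 3 (-0.78, adjusted p = 0.0172). These 6 libraries held 7 to 15 reads of DLL1 each, and adding 1 to the value understates fold changes at such levels.

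DLL3 (chr19:39498895-39508481, plus strand), an atypical Delta-like protein that acts within the cell that makes it, rose in 5 of 6 conditions. Its values were 123, 146 and 139.7 in Control, 356, 369.8 and 348 in shARID1A.4 and 306, 284 and 299.7 in shARID1A/B.2.3. Both conditions stood above all other libraries and did not overlap with each other, at 1.39 (SE 0.080, 2.62-fold, adjusted p = 5.68e-14) and 1.12 (SE 0.080, 2.17-fold, adjusted p = 5.15e-12). The libraries of shARID1A/B.4.2 (191 to 215), shARID1A.2 (196 to 218) and shARID1B.2 (177 to 208) overlapped with their neighbours in this order and lay above Control, at 0.59, 0.58 and 0.48. In shARID1B.3 the difference was 0.11 (95% interval -0.051 to 0.28, adjusted p = 0.218), with overlap.

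JAG2 (chr14:105140981-105168824, minus strand), a Jagged ligand, was highest in the same pair of conditions as DLL3. Its values were 78.7, 95.1 and 91.4 in Control, 227, 259 and 236 in shARID1A.4 and 203, 179 and 193 in shARID1A/B.2.3. Every library of the latter 2 conditions lay above Control, at 1.44 (SE 0.13, 2.71-fold, adjusted p = 5.18e-10) and 1.11 (SE 0.13, 2.16-fold, adjusted p = 5.93e-08). It fell in shARID1B.3 (69.7, 44.7 and 54.4), at -0.66 (adjusted p = 1.19e-04). In shARID1A.2 (101, 89.6 and 83.5), shARID1B.2 (91.9, 89.1 and 103) and shARID1A/B.4.2 (91.1, 91.9 and 108) the libraries overlapped with Control, at differences of 0.045 (95% interval -0.23 to 0.32), 0.10 (-0.17 to 0.37) and 0.13 (-0.14 to 0.41). The shARID1A.2 difference was -0.036 without Control replicate 1 and -0.026 without shARID1A.2 replicate 1. Over the 21 libraries JAG2 and DLL3 had a Pearson r of 0.90.

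JAG1 (chr20:10637684-10673999, minus strand), the other Jagged ligand, rose in both conditions labelled shARID1A/B. Its values were 74.0, 91.8 and 69.8 in Control, 141, 171 and 149.9 in shARID1A/B.4.2 and 106, 123 and 118 in shARID1A/B.2.3, all 6 above Control, at 0.97 (SE 0.14, adjusted p = 9.88e-07) and 0.56 (SE 0.14, adjusted p = 9.29e-04). It fell in shARID1B.3 (42.8, 45.6 and 45.8) without overlap, at -0.79 (adjusted p = 2.31e-05). The remaining differences were close to the spread. In shARID1A.4 (54.4, 72.5 and 57.9) a call at -0.35 (adjusted p = 0.0278) was lost without Control replicate 2 (-0.23), shARID1A.4 replicate 1 (-0.26) or shARID1A.4 replicate 3 (-0.31), and the libraries overlapped with Control. In shARID1A.2 (109, 81.4 and 98.0) the difference of 0.29 missed the threshold (adjusted p = 0.0634), and passed it without Control replicate 2 (0.40) or shARID1A.2 replicate 2 (0.40). In shARID1B.2 (68.3, 62.5 and 64.9) it was -0.26 (95% interval -0.54 to 0.031, adjusted p = 0.110), although the 3 libraries lay below Control.

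HES1 (chr3:194136145-194138732, plus strand), the target with the paired TGGGAA matches shown above, moved in both directions. Its values were 382, 452 and 447 in Control, 209, 199 and 213 in shARID1A.2 and 821, 936 and 788 in shARID1B.3. All libraries of shARID1A.2 lay below every other library, at -1.04 (SE 0.078, 2.06-fold lower, adjusted p = 1.04e-11), and all of shARID1B.3 lay above every other library, at 0.99 (SE 0.078, 1.99-fold, adjusted p = 5.27e-11). In shARID1A/B.2.3 (302, 317 and 352) and shARID1A/B.4.2 (316, 336 and 321) it was lower than in Control by similar amounts, -0.40 (adjusted p = 7.98e-05) and -0.39 (adjusted p = 9.47e-05). In shARID1A.4 (487, 474 and 412) and shARID1B.2 (385, 368 and 405) the libraries overlapped with Control, at 0.10 (95% interval -0.061 to 0.26) and -0.14 (-0.30 to 0.020). The shARID1B.2 difference passed the threshold without Control replicate 1 (-0.22, adjusted p = 0.0219).

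HEY1, the member with the highest level per kb in Control and a bHLH repressor of the same family, was lower in all 6 conditions. Its values were 2721, 2739 and 2777 in Control. It stood at 1711, 1741 and 1657 in shARID1A.4, 1683, 1737 and 1729 in shARID1A.2, 1723, 1829.8 and 1720.2 in shARID1A/B.2.3 and 1758, 1877 and 1759 in shARID1B.2, which overlapped with their neighbours in this order. The log2 fold changes of these 4 conditions were -0.69, -0.68, -0.64 and -0.61 (SE 0.042, adjusted p of 1.90e-13 to 3.62e-12). The falls were smaller in shARID1A/B.4.2 (2081, 2347 and 2308), at -0.29 (adjusted p = 1.19e-06), and in shARID1B.3 (2474, 2615 and 2343), at -0.15 (adjusted p = 0.00337), though no library overlapped with Control. Scaled by the upper quartile, the shARID1B.3 value was -0.090 (adjusted p = 0.0653). HES1 and HEY1 thus differed in direction in shARID1B.3, where both values passed the test.

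MAML2 (chr11:95976598-96343180, minus strand), the Mastermind-like coactivator, fell furthest in the 4 conditions with low ARID1B. Its values were 2745, 2749 and 2684 in Control. They were 938, 925 and 916 in shARID1A/B.2.3, 1218, 1263 and 1260.4 in shARID1A.4, 1231, 1302 and 1248 in shARID1A/B.4.2 and 1342, 1415 and 1331 in shARID1A.2, all below Control and below every library labelled shARID1B. The log2 fold changes were -1.56 (SE 0.032, 2.94-fold lower, adjusted p = 1.02e-22), -1.13, -1.11 and -1.0002. In the libraries labelled shARID1B, where ARID1A alone was low, MAML2 moved both ways. It was lower in shARID1B.2 (1987, 2009 and 1923), at -0.47 (adjusted p = 2.86e-12), and higher in shARID1B.3 (3445, 3634 and 3503), at 0.37 (adjusted p = 2.37e-10), without overlap with Control in either.

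Conditions with one label differed from each other in most members, as they did in most genes. Between shARID1A.2 and shARID1A.4, 9 of 10 members were called (all genes 75.8%). Between shARID1B.2 and shARID1B.3, 10 of 10 were called (66.0%), and between shARID1A/B.2.3 and shARID1A/B.4.2, 9 of 10 (74.9%). The receptors were lower in shARID1A.2 than in shARID1A.4, with log2 differences of -1.95 (NOTCH1), -1.07 (NOTCH2) and -1.78 (NOTCH3, SE 0.065, adjusted p = 5.10e-18). They were higher in shARID1A/B.2.3 than in shARID1A/B.4.2, with differences of 1.43, 1.15 and 1.69 (SE 0.065, adjusted p = 1.56e-17). Between shARID1B.2 and shARID1B.3 the receptor differences were -0.36, -0.36 and -0.51. The NOTCH1 value (adjusted p = 0.0429) was -0.16 without shARID1B.3 replicate 1 (adjusted p = 0.361), and the call was also lost without shARID1B.2 replicate 1 (-0.34), 2 (-0.35) or 3 (-0.40).

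DLL1 was higher in shARID1A.2 than in shARID1A.4 by 2.41 (SE 0.26, adjusted p = 9.72e-09) and higher in shARID1B.2 than in shARID1B.3 by 2.51 (SE 0.26, adjusted p = 6.67e-09). HES1 was lower in the same conditions, with differences of -1.14 (adjusted p = 1.61e-12) and -1.13 (adjusted p = 2.95e-12). Over the 21 libraries DLL1 and HES1 had a Pearson r of -0.79. Within the shARID1A/B label, DLL1 differed by -0.62 (adjusted p = 0.0358), a call lost without shARID1A/B.2.3 replicate 1 (-0.45) or without shARID1A/B.4.2 replicate 1 (-0.65), 2 (-0.58) or 3 (-0.63). HES1 differed there by -0.0065 (95% interval -0.17 to 0.16), a value that was 0.042 without shARID1A/B.2.3 replicate 1, 0.0073 without shARID1A/B.2.3 replicate 2 and 0.019 without shARID1A/B.4.2 replicate 2. JAG2 was lower in shARID1A.2 than in shARID1A.4 (-1.39, adjusted p = 8.75e-10) and higher in shARID1A/B.2.3 than in shARID1A/B.4.2 (0.98, adjusted p = 3.91e-07). JAG1 differed by -0.41 in the latter pair (adjusted p = 0.0103), a call lost without shARID1A/B.4.2 replicate 2 (-0.33, adjusted p = 0.0613). MAML2 differed by 0.13, -0.84 and -0.44 in the 3 pairs, and each passed the test. HEY1 differed by 0.011 between shARID1A.2 and shARID1A.4 (95% interval -0.076 to 0.10, adjusted p = 0.814), and by -0.0083 without shARID1A.4 replicate 3.

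**Figure D3:**
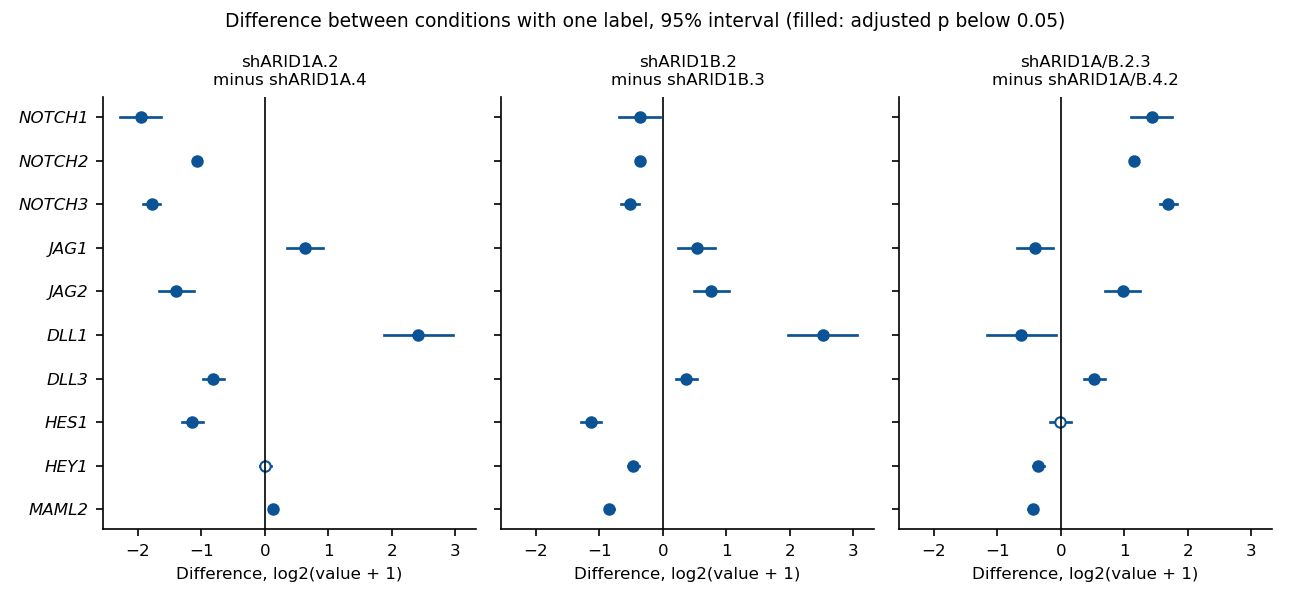
Difference between conditions of one label in log2(value + 1) for the 10 Notch genes. Points are estimates from 3 libraries against 3, bars are 95% intervals and filled points passed an adjusted p of 0.05. The receptors lie left of 0 in both single-shRNA pairs and right of 0 in the pair labelled as combinations, and DLL1 lies past 2 in both single-shRNA pairs.

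The labels were then compared directly, each as the mean of its 2 conditions. Control values do not enter these differences, but the Control libraries remained in the fit that estimated the spread. The libraries labelled shARID1A differed from those labelled shARID1B in 9 of 10 members (all genes 67.3%) and from those labelled shARID1A/B in 6 of 10 (59.2%). Those labelled shARID1A/B and shARID1B differed in 10 of 10 (70.2%). MAML2 was lower under both other labels than under shARID1B, with log2 differences of -1.02 for shARID1A minus shARID1B (SE 0.022, adjusted p = 6.87e-22) and -1.29 for shARID1A/B minus shARID1B (SE 0.022, adjusted p = 4.27e-24). NOTCH3 was lower in the same comparisons, with differences of -1.39 (adjusted p = 1.57e-18) and -1.28 (adjusted p = 5.32e-18), and between shARID1A and shARID1A/B it differed by -0.11 (adjusted p = 0.0378). That call was lost without shARID1A.2 replicate 2 (-0.076), shARID1A.4 replicate 2 or 3 (-0.11 each), any 1 of the shARID1A/B.2.3 libraries (-0.11 each), or shARID1A/B.4.2 replicate 2 (-0.093) or 3 (-0.090). HES1 was lower too, with differences of -0.89 and -0.82 from shARID1B, where shARID1B.3 alone stood above Control. JAG2 was higher by 1.02 and 0.90, and DLL3 by 0.69 and 0.56. JAG1 was higher under shARID1A/B than under shARID1B by 1.29 (adjusted p = 1.49e-11), and its difference for shARID1A minus shARID1A/B was -0.79 (adjusted p = 1.59e-07). For NOTCH1 the difference of shARID1A minus shARID1A/B was -1.15 (adjusted p = 1.99e-09). These means combine conditions that themselves differed, as given above.

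Of 50 other Notch pathway genes listed, 41 were tested. Lower and higher calls among them were 20 and 14 in shARID1A.2 (48.8% and 34.1% of the 41, against 38.2% and 37.9% of all genes), 13 and 19 in shARID1A.4 (31.7% and 46.3%, against 36.6% and 37.0%) and 19 and 12 in shARID1B.2 (46.3% and 29.3%, against 34.0% and 31.6%). They were 16 and 11 in shARID1B.3 (39.0% and 26.8%, against 32.0% and 31.9%), 11 and 18 in shARID1A/B.2.3 (26.8% and 43.9%, against 34.0% and 35.2%), and 16 and 16 in shARID1A/B.4.2 (39.0% and 39.0%, against 36.1% and 35.1%). Their median log2 fold changes were -0.13, 0.11, -0.070, -0.040, 0.094 and 0.061. NOTCH4, the fourth receptor of the family, named here after its values were seen, had a Control mean of 119.7 ± 13.0 (SD, n = 3), beside 116 ± 2.32 for NOTCH1 on a scale that is not corrected for length. It was called higher in all 6 conditions, where no library overlapped with Control, with log2 fold changes of 0.42 and 0.80 in shARID1B.2 and shARID1B.3, 0.56 and 0.75 in shARID1A.2 and shARID1A.4, and 0.38 and 0.60 in shARID1A/B.2.3 and shARID1A/B.4.2 (SE 0.10, adjusted p at most 0.00212). RBPJ, APH1B and FURIN were called with a log2 fold change past 1 (in either direction) in 4 conditions, each of them in the 4 with low ARID1B. RBPJ, the DNA-binding partner of the receptors, had a Control mean of 5846 ± 104 (SD, n = 3). It was 1291 ± 38.3 in shARID1A.2, 1387 ± 69.3 in shARID1A/B.4.2, 2038 ± 53.9 in shARID1A/B.2.3 and 2089 ± 6.85 in shARID1A.4. The log2 fold changes there were -2.18, -2.08, -1.52 and -1.48 (SE 0.035, adjusted p of 3.54e-25 to 7.00e-22). The falls in shARID1B.2 and shARID1B.3 were -0.92 and -0.57. By label, RBPJ differed by -1.08 for shARID1A minus shARID1B (adjusted p = 1.00e-21), by -1.05 for shARID1A/B minus shARID1B (adjusted p = 9.58e-22) and by -0.033 for shARID1A minus shARID1A/B (95% interval -0.084 to 0.017).

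APH1B, a subunit of γ-secretase, fell from 468 ± 8.27 in Control to 164 ± 8.51 in shARID1A.2 (-1.50) and 190.4 ± 7.56 in shARID1A/B.4.2 (-1.29). Its log2 fold changes were -1.10, -1.09, -0.56 and -0.58 in shARID1A.4, shARID1A/B.2.3, shARID1B.2 and shARID1B.3. FURIN, the protease that cuts the receptor precursor, rose from 688 ± 10 to 1999 ± 20.1 in shARID1A/B.2.3 (1.54), and by 1.41, 1.33, 1.28, 0.67 and 0.28 in shARID1A/B.4.2, shARID1A.4, shARID1A.2, shARID1B.2 and shARID1B.3. DLK1, an atypical Delta-like ligand, had 3603 ± 205 in Control and 668 ± 12.8 in shARID1A.2 (-2.43), 819 ± 45.1 in shARID1B.2 (-2.14) and 1968 ± 247 in shARID1B.3 (-0.88). It fell by less in shARID1A.4 (-0.35) and rose in shARID1A/B.2.3 (0.43), and in shARID1A/B.4.2 the difference was 0.10 (adjusted p = 0.152).

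HES6, a family member known to counter HES1, rose most in shARID1A/B.4.2, from 205 ± 10.6 to 426 ± 21.6 (1.05, adjusted p = 3.04e-09). ATOH1, a proneural factor, named here after its values were seen, was at 0 in the Control libraries and had values of 12.3 to 14.1 in shARID1A.2 and 2.99 to 8.74 in shARID1A.4, and no fold is given against 0. The 9 genes too low to test were DLL4, HES4, HES5, HES7, HEY2, MFNG, NEUROD1, NEUROG1 and NEUROG2.

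**Figure D4:**
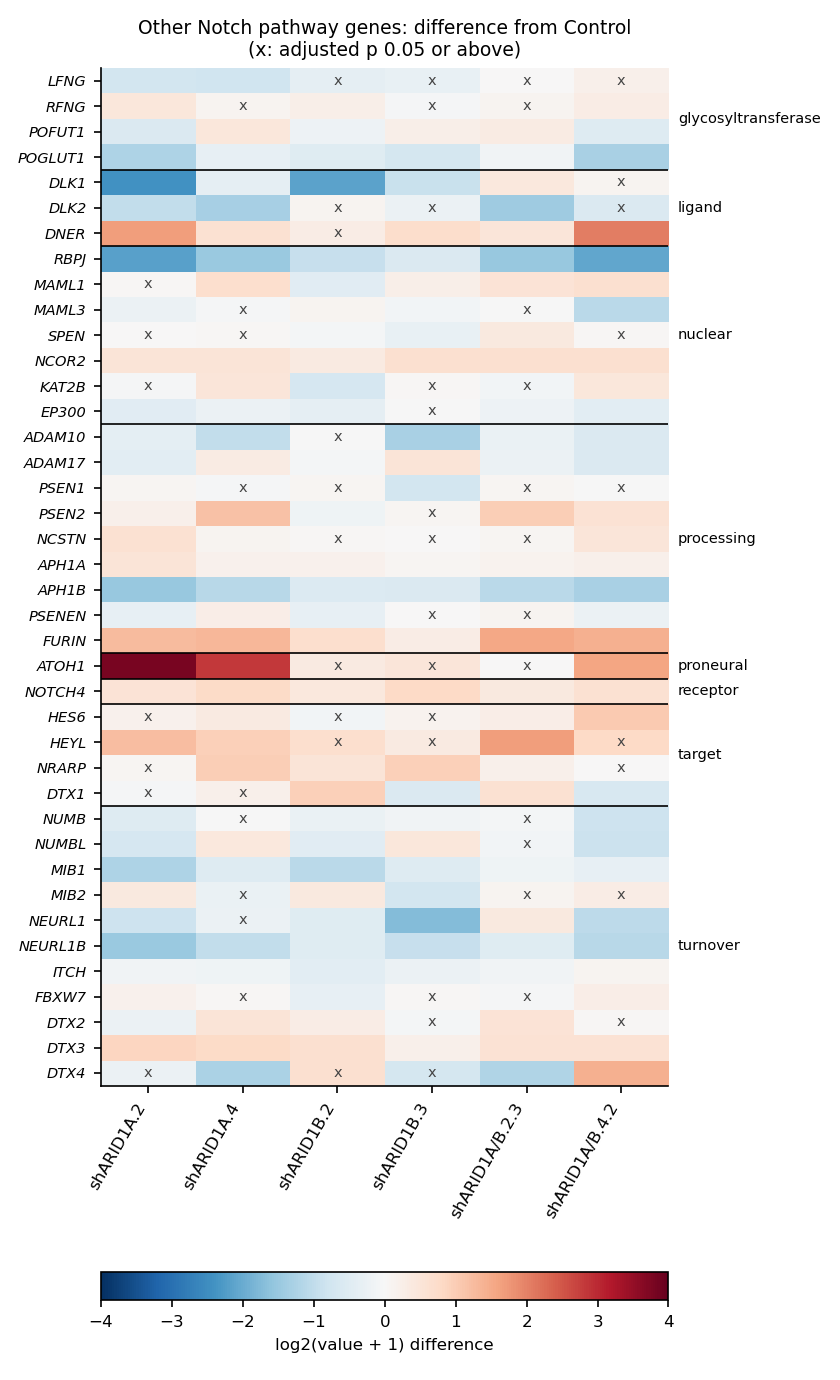
Difference from Control in log2(value + 1) of 40 of the 41 tested other Notch pathway genes in 6 conditions, in colour, grouped by role. A cross marks an adjusted p of 0.05 or above. The RBPJ and APH1B rows are blue and the FURIN row is red in all 6 conditions.

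The tested gene most like a member over the 21 libraries, by Pearson correlation of log2(value + 1) among 18583 others, was NES for NOTCH2 (0.994), APOE for NOTCH3 (0.993) and TMEM51 for NOTCH1 (0.978). NES encodes the intermediate filament nestin and APOE a lipid carrier. For the targets it was FERMT2, which encodes the integrin regulator kindlin-2, for HEY1 (0.973) and UQCC2 for HES1 (0.972). For the ligands it was ARHGEF4 for DLL3 (0.971), C15orf41 for JAG2 (0.969), SLC35F2 for JAG1 (0.961) and H2AW for DLL1 (0.961). The libraries of a condition share their shRNA, so these values describe 7 conditions more than 21 independent points.

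The labelled cell type was checked against its markers. Of the adrenergic neuroblastoma markers, PHOX2A stood at 7228 to 11075 and GATA3 at 7302 to 11433 over the libraries, and SOX10 (Schwann cells) was at 0 in all 21. Mesenchymal state markers were present apart from PRRX1, which reached 2.99 at most. VIM stood at 31307 to 69666, FN1 at 2293 to 5313, SNAI2 at 137 to 774 and FOSL1 at 34.7 to 278. PECAM1 (endothelium) reached 2.81 at most and CD3E (T cells) 8.5. PTPRC (leukocytes) ranged from 57.3 to 426, KDR from 0 to 55.7, CD68 from 0 to 47.4 and CDH5 from 0 to 13.1. NOTCH2 and NOTCH3 were lowest in shARID1A.2 and shARID1A/B.4.2. There the adrenergic factor HAND2 (-1.70 and -1.49) and the mesenchymal factor SNAI2 (-1.85 and -2.07) were also lower. KDR was higher (4.06 and 4.03), from Control values of 1.03 to 2.35, which are near the floor. CDH5, the other endothelial marker tested, had means of 1.52 in shARID1A.2 and 9.84 in shARID1A/B.4.2, against 6.72 in Control. The part of these genes in the Notch values was not tested. The other mesenchymal markers went different ways in these conditions: FN1 was -0.73 and -0.49, FOSL1 -1.56 and -0.57, and VIM 0.34 and -0.049, the last without passing the test (adjusted p = 0.296). The adrenergic markers went different ways too. PHOX2A had means of 10688 in shARID1A.2 and 10124 in shARID1A/B.4.2, against 8960 in Control. GATA3 had means of 9855 and 8825 there, against 7378 in Control. Others of the adrenergic list were, like HAND2, lower than Control or were close to it.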

How the data were processed

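RNA-Seq libraries were made with a stranded poly(A) kit from SK-N-BE(2) cells. Per the submitters' processing notes, STAR 2.5.3a, RSEM 1.3.0, DESeq2 1.26.0 and GRCh38 were used. The deposited unit is a signal that the authors obtained as reads per gene divided by 1 size factor per library. Whole reads were recovered for 100% of values within 0.05 of a read (27954334 to 41077638 per library). All per-sample columns were mapped, and 3 further tables with the authors' own fold changes and p-values were not used. The groups follow the labels.

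Values were tested as log2(value + 1), which understates changes of low genes, with limma 3.58.1 (trend, two-sided moderated test, 21 libraries in 7 conditions) in R 4.3.3. The filter of edgeR 4.0.16 on the recovered reads kept 18584 genes, and p-values were adjusted by Benjamini-Hochberg over all of them. Calls used an adjusted p under 0.05, alone or with a log2 fold change past 1 in size. On reads simulated for shARID1A.2 against Control, limma found 200 of 200 genes changed 2-fold, with 9 false calls among 18584 genes. The changed genes were all drawn from above the Control level of DLL1, and every gene had the same simulated spread. In the data most genes were called, so this check does not give the power or false calls for low members. Named genes are the members, ARID1A and ARID1B, RBPJ, HES6, DLK1, the pathway genes past that size in at least 4 of 6 conditions, and the gene nearest to each member. A few genes that this rule or the marker lists hold are not reported here. The members and gene lists were chosen with earlier results of these data known.

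Levels per kb used the exon union of GENCODE 29, to which 58541 of 60728 identifiers matched without version. Alternatives were edgeR with TMM, DESeq2 1.42.0, scaling to total reads or the upper quartile, pseudocounts of 0.5 and 5, no filter (35892 genes), at least 10 reads in every library (14637 genes), a replicate block, only the libraries compared, and each library left out. Python 3.11.15 with matplotlib 3.10.9 drew the plots.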

Additional observations from a re-analysis of the deposited data

Results flagged for a closer look

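MAML2 responded in opposite directions in the conditions labelled shARID1B. Against Control it was -0.47 on the log2 scale in shARID1B.2 and 0.37 in shARID1B.3, and the difference of shARID1B.2 minus shARID1B.3 was -0.84 (SE 0.032, adjusted p = 2.08e-17 by limma). All 3 libraries of shARID1B.2 lay below Control and all 3 of shARID1B.3 above it. ARID1A was also lower in shARID1B.2 than in shARID1B.3, with a log2 difference of -0.37. Its part in the MAML2 difference was not tested.

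NOTCH1 did so in the conditions labelled shARID1A/B. It was 0.39 in shARID1A/B.2.3 and -1.05 in shARID1A/B.4.2, a difference of 1.43 (SE 0.15, adjusted p = 8.80e-09 by limma), with 3 of 3 libraries above and 3 of 3 below Control. The rise in shARID1A/B.2.3 itself was weak, with an adjusted p of 0.0508 to 0.108 without any of Control replicates 1, 2 and 3 or shARID1A/B.2.3 replicates 2 and 3. ARID1B was higher in shARID1A/B.2.3 than in shARID1A/B.4.2 by 0.45, and its part was not tested.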

How the results depend on the processing

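The count of members called in each of 12 comparisons stayed within 1.5 times its value under each alternative. The alternatives were also run on each of the 10 members in these 12 comparisons (for the 6 comparisons that do not involve Control, this was added after seeing the data), and no called member changed direction. Values that did change sign had not passed the test. NOTCH3 in shARID1B.3 against Control was 0.019 when scaled by the upper quartile. Leaving out 1 library at a time gave -0.076 to 0.015 for NOTCH3 in shARID1B.3, -0.036 to 0.11 for JAG2 in shARID1A.2, -0.35 to 0.095 for DLL1 in shARID1A.4, -0.0083 to 0.028 for HEY1 in shARID1A.2 minus shARID1A.4, and -0.069 to 0.042 for HES1 in shARID1A/B.2.3 minus shARID1A/B.4.2. Calls lost under other settings were JAG1 in shARID1A.4 (DESeq2 -0.36, adjusted p = 0.0881; upper quartile -0.26; only the libraries compared, adjusted p = 0.0857), HEY1 in shARID1B.3 (upper quartile), NOTCH1 in shARID1A/B.2.3 (no filter, adjusted p = 0.0549), DLL1 between the shARID1A/B conditions (no filter, adjusted p = 0.0858) and NOTCH1 between the shARID1B conditions (DESeq2, both scalings, no filter and only the libraries compared). Between labels, calls lost were NOTCH3 for shARID1A minus shARID1A/B (upper quartile -0.098, no filter -0.11) and HEY1 for shARID1A/B minus shARID1B (-0.059 scaled to total reads, -0.058 by the upper quartile; -0.060 without shARID1A/B.4.2 replicate 1). For shARID1A/B minus shARID1B, NOTCH1 was also lost without shARID1B.3 replicate 2 (0.23) or 3 (0.26) or shARID1A/B.4.2 replicate 2 (0.26), and DLL1 without shARID1B.2 replicate 1 (0.44). DLL3 for shARID1A minus shARID1A/B was gained under edgeR, the upper quartile and only the libraries compared, and without any 1 of 6 libraries (0.10 to 0.15 over all libraries left out in turn), and DLL1 for shARID1A minus shARID1B without shARID1B.3 replicate 3 (0.42). Calls gained elsewhere were JAG1 in shARID1A.2 (edgeR 0.32, both scalings), HES1 in shARID1A.4 (upper quartile 0.19), JAG2 in shARID1A/B.4.2 (total reads 0.32) and HEY1 between the shARID1A conditions (0.16 and 0.11 under the scalings). The cause was not tested. DLL1 has no value with at least 10 reads required in every library.

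Replicate numbers did not pair the libraries: deviations from the condition means correlated at -0.088 to 0.053 over 63 same-numbered pairs. With a replicate block, 8 of 10 members were called in shARID1A.2 and 10 of 10 in shARID1A/B.2.3, and no call on a member changed in the 12 comparisons. Depth limits DLL1 and, less so, NOTCH1, JAG1 and JAG2.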
